A study of Mus musculus with 6 samples.

Results

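The p53 pathway was followed through 31 genes in polysome-associated RNA of mouse macrophage-like cells: the gene of p53 itself (Trp53), 3 genes whose products restrain it (Mdm2, Mdm4, Ppm1d) and 27 genes known as its targets. Members were the rows whose symbol equalled an entry of a fixed list, and all 31 were found among the 19233 genes measured. The cells were RAW264.7, a mouse line that resembles macrophages, titled M2 in all samples. The tested cells received BMH-21 at 500 nM for 24 h, starting 24 h after polarization (3 libraries), and the control cells received DMSO, its solvent (3 libraries). RNA came from polysome fractions, the part of an extract in which mRNAs carry several ribosomes. The labels' treatment text describes bone-marrow macrophages, stimulated with IL-4 (20 ng/ml) or, as the other option, with IFNγ and LPS, so which agent polarized the line itself is not given there. The labels do not tie replicates to separate cultures, and p-values therefore reflect a spread between libraries that may only be technical. All values come from 1 cell line.

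BMH-21 inhibits RNA polymerase I, which makes the precursor of ribosomal RNA. In many cells a block of ribosome production frees ribosomal proteins such as RPL5 and RPL11 to bind MDM2, the ubiquitin ligase that marks p53 for degradation, and p53 then builds up as a protein. p53 is a transcription factor whose targets arrest the cell cycle (Cdkn1a), repair DNA, tune metabolism, promote cell death and, through Mdm2 and Ppm1d, hold p53 itself down again. The comparison of BMH-21 with DMSO asked how this inhibitor changed the translated mRNAs of M2 macrophages. p53 protein was not measured, and levels of polysome-associated mRNA do not separate how much mRNA a cell held from how much of it was on polysomes.

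Levels are in FPKM, fragments scaled by exon length and library size, so levels of different genes can be set side by side. Libraries of a group were close to each other. Low values implied 18780000 to 22570000 reads in the BMH-21 libraries and 21620000 to 24080000 in the DMSO libraries, and libraries of the same group correlated across genes at 0.997 to 0.9978. The macrophage markers Cd68, Csf1r, Itgam, Lyz2, Cd14, Spi1, Adgre1, Fcgr1 and Fcgr3 were all at 1 FPKM or more, while Mertk stayed under 1 FPKM. The 10 summed to 18700 to 19900 FPKM with BMH-21 and 10900 to 11300 FPKM with DMSO. Most of each sum was Lyz2, which averaged 17500 FPKM with BMH-21 and 9471 FPKM with DMSO. In limma 6 of the 9 tested markers were called higher and 3 lower, beside 19.9% and 58.4% of all tested genes. The 3 were Adgre1, Fcgr1 and Csf1r, at 22.7, 17.0 and 49.2 FPKM with BMH-21 and 40.7, 36.4 and 56.2 FPKM with DMSO. The T cell, B cell, neutrophil and fibroblast markers found were all under 1 FPKM in every library. Of 6 M2 markers, Retnla, Chil3 and Cd209a were not among the genes measured. The others, Arg1, Mrc1 and Clec10a, were at 0.692, 0.919 and 13.4 FPKM with BMH-21 and 4.29, 1.21 and 16.7 FPKM with DMSO. Of 5 epithelial markers, which macrophages should lack, all 5 were above 0 in the 3 BMH-21 libraries and in DMSO replicate 3, with sums of 10.9 to 14.2 FPKM in BMH-21 libraries and 9.73 FPKM in DMSO replicate 3. In DMSO replicate 1 all 5 were at 0, and in DMSO replicate 2 Epcam, Cdh1 and Krt19 were at 0 and the sum was 0.088 FPKM. Set against DMSO replicate 3 alone, the BMH-21 libraries gave 14 members called higher and 9 called lower in limma (adjusted p under 0.05), beside 16.3% and 51.2% of all tested genes, and 14 and 10 members against all 3 DMSO libraries. That fit was added after the data had been seen, and it assumes that the lone control library varies like the others. The part of epithelial RNA in the other members' values was not tested. DMSO replicate 2 is labelled polyA RNA where the other 5 libraries are labelled total RNA.

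With BMH-21, a set of well-known p53 targets was higher by 1.38 to 5.49 times in group means, leaving aside Eda2r and Tnfrsf10b, which passed the filter on low values only through the BMH-21 libraries, while the mRNAs of p53, of its restrainers Mdm4 and Ppm1d, and of the spindle proteins Ckap2 and Gtse1 were lower. Phlda3, a restrainer of AKT signalling, stood out at 54.1 ± 1.0 FPKM with BMH-21 and 9.85 ± 0.90 FPKM with DMSO (SD, n = 3 each). Cdkn1a, the cell cycle inhibitor p21, had the highest level of all members, at 249.9 ± 3.1 FPKM with BMH-21 and 119.2 ± 4.0 FPKM with DMSO. Trp53 moved the other way, at 7.40 ± 0.90 FPKM with BMH-21 and 16.3 ± 0.19 FPKM with DMSO.

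Of the 31 members, 29 passed the filter of at least 1 FPKM in at least 3 libraries, and Ddb2 and Perp did not. In limma, with p-values adjusted over all 9748 tested genes, 14 members were called higher with BMH-21, 10 were called lower and 5 did not pass an adjusted p of 0.05. That is 48.3% of the tested members higher and 34.5% lower, beside 19.9% of all tested genes called higher and 58.4% called lower (78.3% called in all). With a log2 fold change of at least 0.5 in size as well, 11 members were higher and 5 lower, beside 6.18% and 25.5% of all tested genes. Eda2r and Tnfrsf10b passed the filter only through the BMH-21 libraries, so their direction was fixed by that choice. Among the 27 members that reached 1 FPKM in both groups, 12 were called higher and 10 lower. The share called among all genes that reached 1 FPKM in both groups was not counted. The median log2 fold change of tested members was 0.09, with quartiles of −0.34 and 0.92, beside −0.23 over all tested genes, with quartiles of −0.51 and 0.06. Fold changes are BMH-21 minus DMSO on the log2(FPKM + 1) scale, which understates the change of low genes. The split rested in part on scaling, for members and for all genes alike. With median-ratio scaling 17 members were higher and 7 lower, beside 37.4% and 36.4% of all tested genes. With upper-quartile scaling 16 were higher and 7 lower, beside 34.4% and 39.8%, and with quantile normalization 17 and 5, beside 36.1% and 35.9%. With column totals made equal 14 were higher and 11 lower, beside 14.2% and 67.9%.

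**Figure D1:**
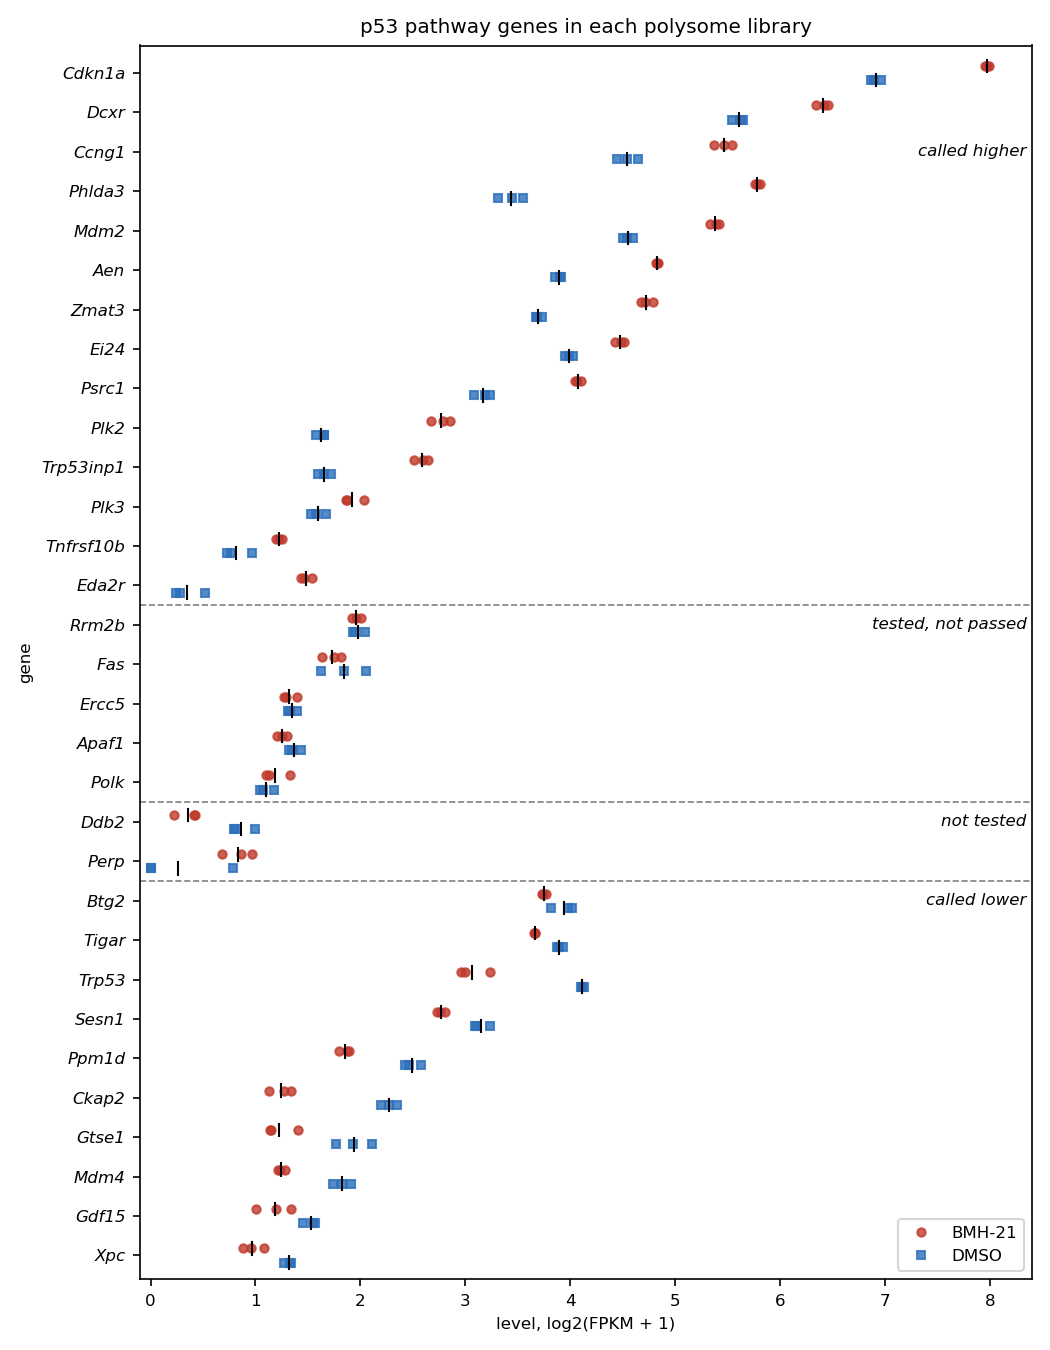
Level of each of the 31 p53 pathway genes in each library, as log2(FPKM + 1), with BMH-21 libraries as red circles above DMSO libraries as blue squares and the group mean as a black tick. Genes are grouped by limma call, and in the 14 genes called higher every BMH-21 library lies to the right of every DMSO library. Of these, Eda2r and Tnfrsf10b passed the filter only through the BMH-21 libraries.

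Among all 31 members, the BMH-21 libraries all exceeded the DMSO libraries in 14 and were all below them in 12, and the groups overlapped in 5. The same held upward for 13.6% and downward for 38.0% of all 19233 genes, and for 20.3% and 59.5% of the tested genes. Exact permutation of 3 libraries against 3 gives no p under 0.10, so single genes were judged by the fit across all genes.

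**Figure D2:**
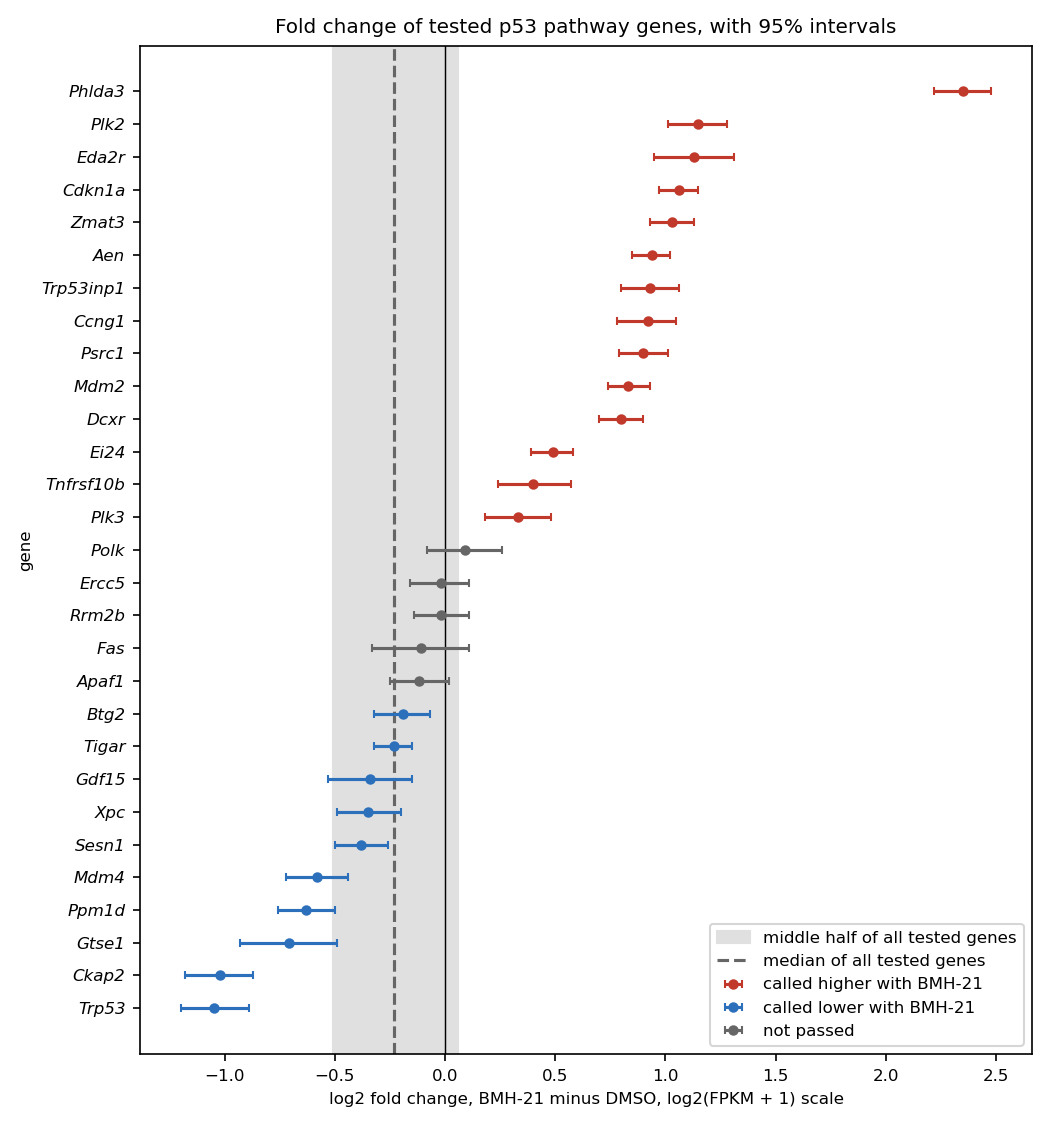
Log2 fold change (BMH-21 minus DMSO) of the 29 tested members with limma 95% intervals, in descending order, with the median of all tested genes at −0.23 as a dashed line and their middle quartiles as a grey band. Of the 29, 15 lie to the right of the band, from Polk at 0.09 to Phlda3 at 2.35, and 5 lie to its left, from Mdm4 at −0.58 to Trp53 at −1.05.

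Trp53 (chromosome 11, 69580359 to 69591873, mm10) had 8.43, 7.0 and 6.77 FPKM with BMH-21, against 16.1, 16.3 and 16.5 FPKM with DMSO. All BMH-21 libraries lay far below the DMSO libraries, which differed little among themselves. The log2 fold change was −1.05 ± 0.07 (SE, limma adjusted p = 3.41e-07), and it was number 424 among the falls of the 9748 tested genes. At the implied depth these values stand for 570 to 640 reads with BMH-21 and 1425 to 1570 reads with DMSO.

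The restrainers of p53 did not move together. Mdm2 (chromosome 10, 117688875 to 117710758), the ubiquitin ligase that is itself a p53 target, had 41.9, 39.3 and 40.8 FPKM with BMH-21, against 21.7, 23.3 and 22.3 FPKM with DMSO. Mdm2 rose by 0.83 ± 0.04 on the log2 scale (SE, limma adjusted p = 7.35e-08). Mdm4 (chromosome 1, 132959484 to 133030561), a relative of Mdm2 that binds p53 and masks its activation domain, had 1.33, 1.43 and 1.36 FPKM with BMH-21, against 2.34, 2.55 and 2.76 FPKM with DMSO. Ppm1d (chromosome 11, 85311244 to 85347066), which encodes the phosphatase WIP1 and takes activating phosphates off p53, had 2.48, 2.67 and 2.71 FPKM with BMH-21, against 4.38, 4.96 and 4.51 FPKM with DMSO. Both were lower without overlap, at −0.58 ± 0.06 for Mdm4 and −0.63 ± 0.06 for Ppm1d (SE, limma adjusted p = 1.08e-05 and 3.65e-06). They were number 1951 and 1684 among the falls of all tested genes, at −0.35 and −0.4 relative to the median of those genes. Ppm1d is known as a p53 target too, so the restrainers that p53 itself drives split in direction here.

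Ratios of members within a library do not depend on any factor by which the library was scaled. The ratio of Mdm2 to Trp53 was 4.97, 5.62 and 6.03 with BMH-21, against 1.35, 1.43 and 1.35 with DMSO, a 4.02-fold difference. The ratio of Mdm2 to Mdm4 was 31.5, 27.5 and 30.1 with BMH-21, against 9.27, 9.13 and 8.06 with DMSO. The ratio of Mdm2 to Ppm1d was 16.9, 14.7 and 15.1 with BMH-21, against 4.95, 4.70 and 4.93 with DMSO. In each of these 3 ratios the groups were well apart. The ratio of Mdm4 to Trp53 was 0.158, 0.204 and 0.200 with BMH-21, against 0.145, 0.157 and 0.168 with DMSO, and here the groups overlapped. Two-sided exact permutation p-values were 0.10 for the first 3 ratios, the smallest that 3 against 3 allows, and 0.20 for the last, or 0.13 and 0.20 after Benjamini-Hochberg adjustment over the 4 ratios.

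**Figure D3:**
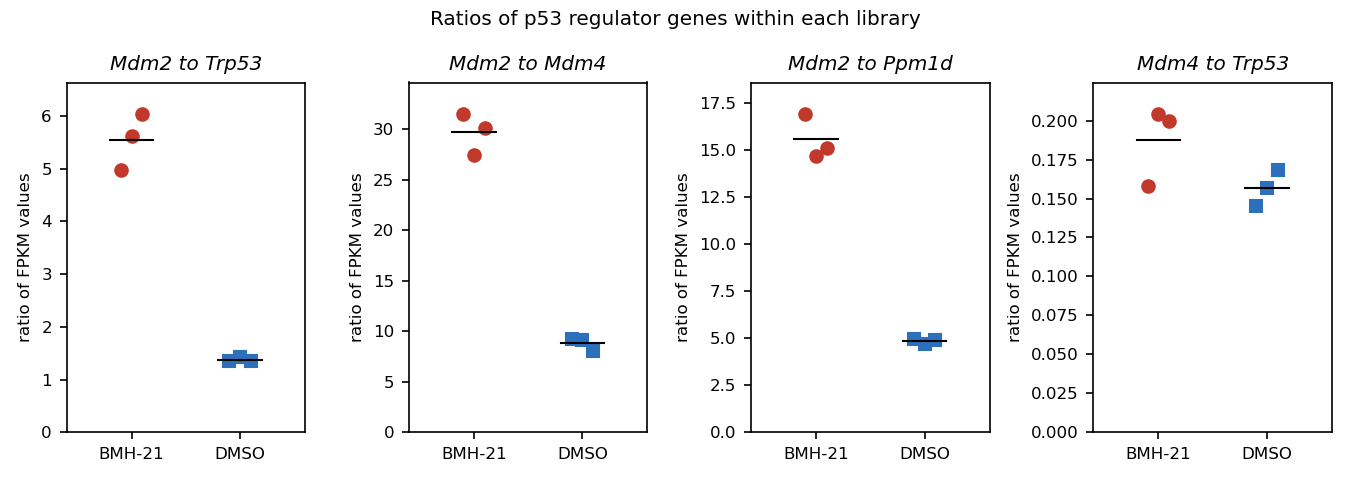
Ratio of FPKM values of 2 genes within each library, for 4 pairs of p53 regulators, with BMH-21 left of DMSO, 1 point per library, a line at the group mean and axes that start at 0. The Mdm2 to Trp53 ratio lies between 4.97 and 6.03 with BMH-21 and between 1.35 and 1.43 with DMSO, while the Mdm4 to Trp53 ratios overlap.

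Members known for cell cycle arrest were led in level by Cdkn1a. Cdkn1a (chromosome 17, 29090976 to 29100727), the inhibitor of cyclin-dependent kinases, had 246.4, 252.5 and 250.7 FPKM with BMH-21, against 123.6, 115.9 and 118.2 FPKM with DMSO. Its levels differed by 2.10 times between group means, far more than either group's spread, and Cdkn1a rose by 1.06 ± 0.04 on the log2 scale (SE, limma adjusted p = 7.77e-09). Antisense gene models share 273 exon bases with Cdkn1a, and 84, 122, 324 and 734 with Plk3, Tigar, Ei24 and Rrm2b, and reads of the 2 strands could not be told apart because the library kit is not stated to mark the strand. Ccng1, cyclin G1, which brings a phosphatase to MDM2, had 45.6, 43.2 and 40.4 FPKM with BMH-21, against 20.8, 24.0 and 22.2 FPKM with DMSO, and rose by 0.92 ± 0.06 on the log2 scale (SE, limma adjusted p = 3.41e-07).

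The polo-like kinases Plk2 and Plk3 act in stress responses. Plk2 (chromosome 13, 110395046 to 110400844) had 5.92, 6.24 and 5.37 FPKM with BMH-21, against 2.14, 1.99 and 2.14 FPKM with DMSO, and rose by 1.15 ± 0.06 on the log2 scale (SE, limma adjusted p = 7.42e-08). Plk3 averaged 2.80 ± 0.26 FPKM with BMH-21 and 2.02 ± 0.16 FPKM with DMSO (SD, n = 3 each), a smaller rise of 0.33 that also passed. Btg2, an antiproliferative gene whose product helps remove poly(A) tails, averaged 12.4 ± 0.18 FPKM with BMH-21 and 14.3 ± 1.1 FPKM with DMSO. Its call as lower (−0.19, limma adjusted p = 0.0088) sat at the median of all genes, was lost against DMSO replicate 3 alone, and its sign turned with median-ratio scaling (0.07), upper-quartile scaling (0.03) and quantile normalization (0.03).

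Of 3 members whose products act on the spindle or microtubules, Psrc1 rose and Ckap2 and Gtse1 fell. Psrc1 (chromosome 3, 108383839 to 108388231) had 15.5, 15.8 and 16.1 FPKM with BMH-21, against 7.47, 8.44 and 8.12 FPKM with DMSO. Ckap2 (chromosome 8, 22168160 to 22185819) had 1.52, 1.19 and 1.42 FPKM with BMH-21, against 3.82, 4.09 and 3.57 FPKM with DMSO. Gtse1 (chromosome 15, 85859745 to 85876573), whose human product also restrains p53, had 1.65, 1.20 and 1.21 FPKM with BMH-21, against 3.33, 2.40 and 2.82 FPKM with DMSO. None of the 3 showed overlap between the groups. The log2 fold changes were 0.90 ± 0.05 for Psrc1, −1.02 ± 0.07 for Ckap2 and −0.71 ± 0.10 for Gtse1 (SE, limma adjusted p = 1.19e-07, 4.41e-07 and 9.27e-05). In bulk samples like these, fewer cells that express such genes and less of their mRNA per cell cannot be told apart.

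Among genes of survival and death was Phlda3, the largest change of any member on the log2(FPKM + 1) scale. Phlda3 (chromosome 1, 135766119 to 135769136), whose product binds membrane phosphoinositides in place of AKT, had 54.1, 53.1 and 55.2 FPKM with BMH-21, against 10.7, 8.93 and 9.89 FPKM with DMSO. Group means differed by 5.49 times, and the rise of 2.35 ± 0.06 on the log2 scale (SE, limma adjusted p = 1.21e-09) was number 10 among the rises of all 9748 tested genes. No other member was among the 100 largest rises. Against DMSO replicate 3 alone the log2 fold change of Phlda3 was 2.34.

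Receptors of the tumour necrosis factor family differed. Eda2r (chromosome X, 97333840 to 97377216), a receptor for ectodysplasin A2, had 1.91, 1.70 and 1.76 FPKM with BMH-21, against 0.219, 0.432 and 0.180 FPKM with DMSO. At the implied depth these are 211, 226 and 216 reads with BMH-21, against 31, 55 and 24 reads with DMSO. The groups were far apart, by 6.47 times between means, while the log2 fold change on the scale with 1 FPKM added was only 1.13 ± 0.08 (SE, limma adjusted p = 6.67e-07). Tnfrsf10b, the mouse receptor for TRAIL, averaged 1.33 ± 0.045 FPKM with BMH-21 and 0.769 ± 0.16 FPKM with DMSO (SD, n = 3 each). Its log2 fold change was 0.40. Eda2r and Tnfrsf10b passed the filter only through the BMH-21 libraries, so their direction was fixed by that choice. Fas, the death receptor for FAS ligand, had 2.35, 2.11 and 2.52 FPKM with BMH-21, against 2.60, 2.09 and 3.15 FPKM with DMSO. The Fas groups overlapped, and the 95% interval of its log2 fold change ran from −0.33 to 0.11. Fas was called lower without DMSO replicate 2 (−0.22) and against DMSO replicate 3 alone (−0.32).

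Further members of this group rose by about as much as Cdkn1a. Zmat3 (chromosome 3, 32334792 to 32366014), an RNA-binding zinc finger protein, had 26.6, 24.6 and 25.3 FPKM with BMH-21, against 11.7, 12.2 and 11.8 FPKM with DMSO, and rose by 1.03 ± 0.04 on the log2 scale (SE, limma adjusted p = 2.09e-08). Aen (chromosome 7, 78895854 to 78911209), a nuclease that promotes apoptosis, had 27.5, 27.1 and 27.4 FPKM with BMH-21, against 13.5, 13.9 and 14.0 FPKM with DMSO. Trp53inp1, a stress protein that acts in autophagy and in p53 phosphorylation, had 5.07, 5.25 and 4.68 FPKM with BMH-21, against 2.14, 2.29 and 2.02 FPKM with DMSO. In all 3 the BMH-21 libraries were clearly above the DMSO libraries, and Aen and Trp53inp1 rose by 0.94 ± 0.04 and 0.93 ± 0.06 on the log2 scale (SE, limma adjusted p = 1.61e-08 and 2.62e-07). Ei24, an endoplasmic reticulum protein of autophagy, averaged 21.2 ± 0.65 FPKM with BMH-21 and 14.9 ± 0.46 FPKM with DMSO (SD, n = 3 each), a log2 fold change of 0.49. Apaf1, the scaffold of the apoptosome, averaged 1.38 ± 0.082 FPKM with BMH-21 and 1.58 ± 0.10 FPKM with DMSO and did not pass (limma adjusted p = 0.097), with an interval from −0.25 to 0.02. It was called lower with column totals made equal (−0.19).

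Perp, which encodes a membrane protein of desmosomes and apoptosis and is known mainly from epithelia, did not pass the filter. It had 0.600, 0.953 and 0.813 FPKM with BMH-21, against 0, 0 and 0.725 FPKM with DMSO. In reads at the implied depth that is 22, 42 and 33 with BMH-21, against 0, 0 and 32 with DMSO. DMSO replicate 3 was thus within the range of the BMH-21 libraries, and DMSO replicates 1 and 2 were at 0. The same 4 libraries were those in which all 5 epithelial markers were above 0, with Krt8 at 4.22, 3.60 and 3.78 FPKM with BMH-21, against 0, 0.0236 and 3.27 FPKM with DMSO. The part of such RNA in the Perp values was not tested. With no filter, Perp had an adjusted p of 0.12 in limma.

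None of the repair genes was called higher in the values as deposited. Xpc, which recognises damage in nucleotide excision repair, had 0.843, 0.936 and 1.11 FPKM with BMH-21, against 1.42, 1.53 and 1.52 FPKM with DMSO, and fell by 0.35 on the log2 scale (limma adjusted p = 0.00079). Xpc no longer passed with quantile normalization (−0.11). Ddb2, its partner in finding ultraviolet damage, was under the filter, at 0.335, 0.345 and 0.164 FPKM with BMH-21, against 0.995, 0.737 and 0.742 FPKM with DMSO. The Ddb2 groups did not overlap, and with no filter it was called lower (−0.51, limma adjusted p = 0.0051). The exons of Ddb2 share 652 bases with Acp2 on the other strand, so its values are uncertain.

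Rrm2b, the p53-induced subunit of ribonucleotide reductase, averaged 2.89 ± 0.12 FPKM with BMH-21 and 2.94 ± 0.18 FPKM with DMSO (SD, n = 3 each). Polk, a polymerase that copies past damaged bases, averaged 1.28 ± 0.20 FPKM with BMH-21 and 1.14 ± 0.11 FPKM with DMSO. Ercc5, a nuclease of excision repair, averaged 1.50 ± 0.12 FPKM with BMH-21 and 1.54 ± 0.080 FPKM with DMSO. The groups overlapped in all 3, with 95% intervals of the log2 fold change from −0.14 to 0.11 for Rrm2b, −0.08 to 0.26 for Polk and −0.16 to 0.11 for Ercc5. Relative to the median of all tested genes they stood at 0.22, 0.32 and 0.21. With scalings that move that median to about 0 they were called higher, Rrm2b and Polk with median-ratio, upper-quartile and quantile scaling and Ercc5 with median-ratio and quantile scaling.

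Metabolic and secreted members were mixed. Dcxr (chromosome 11, 120725399 to 120727281), a sugar and dicarbonyl reductase, had 84.4, 80.1 and 87.1 FPKM with BMH-21, against 48.5, 45.6 and 49.1 FPKM with DMSO, and rose by 0.80 ± 0.05 on the log2 scale (SE, limma adjusted p = 1.38e-07). Sesn1, a sestrin that restrains mTORC1, averaged 5.79 ± 0.19 FPKM with BMH-21 and 7.86 ± 0.46 FPKM with DMSO (SD, n = 3 each). Tigar, a phosphatase that slows glycolysis, averaged 11.7 ± 0.059 FPKM with BMH-21 and 13.9 ± 0.27 FPKM with DMSO. Gdf15, a secreted stress cytokine, had 1.01, 1.53 and 1.30 FPKM with BMH-21, against 1.97, 1.92 and 1.74 FPKM with DMSO, which are 35, 64 and 50 reads with BMH-21, against 88, 77 and 73 reads with DMSO. Sesn1, Tigar and Gdf15 were called lower, at −0.38, −0.23 and −0.34, close to the median of all genes. The Tigar and Gdf15 calls were lost with median-ratio, upper-quartile and quantile scaling, the Sesn1 call with quantile normalization (−0.09), and the Gdf15 call also against DMSO replicate 3 alone (−0.27).

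**Figure D4:**
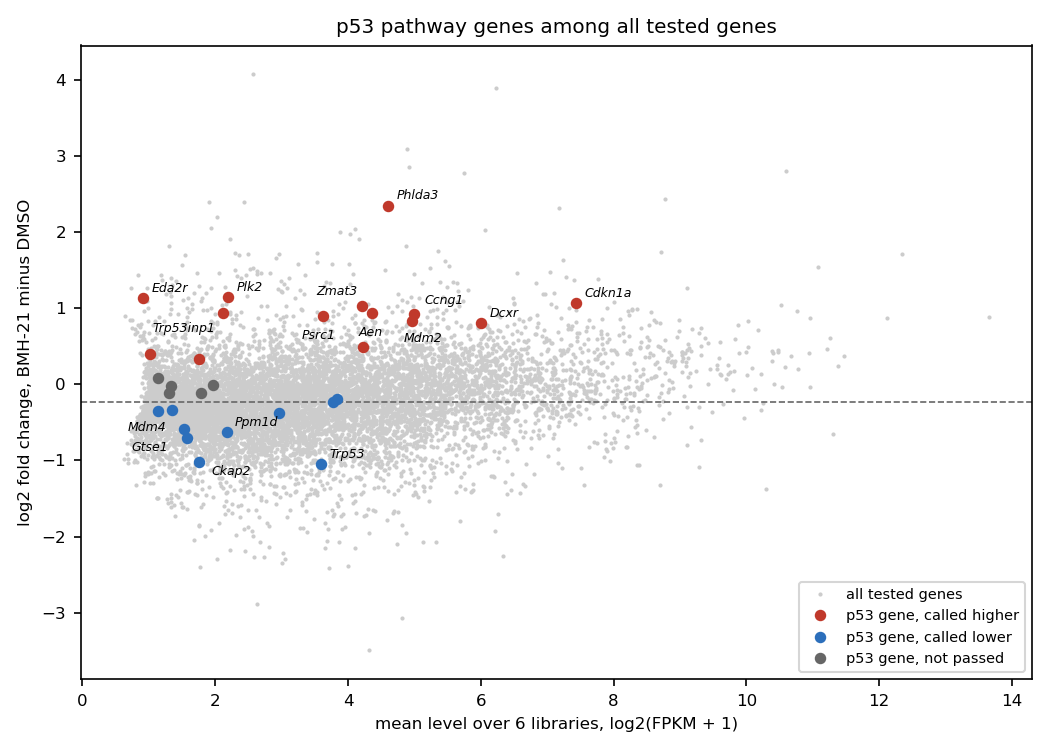
Log2 fold change (BMH-21 minus DMSO) against mean level, log2(FPKM + 1), for all 9748 tested genes in grey and the 29 tested members in colour by call, with members named where the fold change was at least 0.5 in size and the median of all genes dashed. Members called higher span the range of levels from Eda2r to Cdkn1a, and those called lower all have a mean level under that of Mdm2.

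Promoter sequences were set beside these values, because p53 binds DNA at a pair of 10-letter half-sites and members that rose together could carry them near their start. The promoter table (RefSeq, GRCm38.p6, 250 bases before to 50 after each start) held 24 of the 31 members, and Trp53inp1, Zmat3, Tnfrsf10b, Rrm2b, Xpc, Ddb2 and Perp were not among them. The p53 half-site, whose letters read the same on both strands, was present in 11 of the 24 members (45.8%), beside 9.55% of all 27025 genes in the table. It was present in 5 of 11 matched members called higher and in 5 of 9 called lower, so its presence went with both directions. The letters CATG, the commonest centre of a half-site, were present in 10 of the 24 members (41.7%), beside 64.8% of all genes. A match is a description of letters, and binding was not measured. Most members were listed as known p53 targets, so a p53-site share above that of all genes could be expected beforehand.

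The 6 stretches below, 80 bases each, run 5′ to 3′ on the strand of the gene. They are those of called members with a half-site before an annotated start and no annotated exon in the stretch. For Sesn1 that start lies inside the gene (chromosome 10, 41809935 to 41908424). Capitals mark half-sites. Cdkn1a, Mdm2 and Ccng1 were higher and Ppm1d, Sesn1 and Ckap2 were lower with BMH-21.
Cdkn1a (chr17:29090882-29090961, plus strand): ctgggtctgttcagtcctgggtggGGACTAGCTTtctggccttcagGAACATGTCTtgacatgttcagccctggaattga
Mdm2 (chr10:117710900-117710979, minus strand): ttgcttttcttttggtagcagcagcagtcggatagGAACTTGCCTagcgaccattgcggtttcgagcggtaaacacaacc
Ccng1 (chr11:40755427-40755506, minus strand): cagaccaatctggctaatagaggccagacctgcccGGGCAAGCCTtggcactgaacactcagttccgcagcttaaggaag
Ppm1d (chr11:85311087-85311166, plus strand): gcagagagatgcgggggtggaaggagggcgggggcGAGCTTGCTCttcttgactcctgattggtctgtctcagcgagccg
Sesn1 (chr10:41887231-41887310, plus strand): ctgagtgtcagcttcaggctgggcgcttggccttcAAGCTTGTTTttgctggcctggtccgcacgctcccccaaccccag
Ckap2 (chr8:22185978-22186057, minus strand): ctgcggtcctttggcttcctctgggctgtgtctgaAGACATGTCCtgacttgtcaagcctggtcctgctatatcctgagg

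Cdkn1a was the only matched member with a pair of exact half-sites at most 13 bases apart, a pattern found in 0.074% of all genes in the table. These half-sites begin at −73 and −51, counted back from −1 at the base before the annotated start. A 20-letter site with no spacer and up to 2 mismatches outside the C and G of each centre was found in 4 of the 24 members, beside 0.392% of all genes. These were Cdkn1a (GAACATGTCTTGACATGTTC, 1 mismatch) and Ccng1 (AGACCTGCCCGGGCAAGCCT, 1 mismatch), which were higher, and Ckap2 (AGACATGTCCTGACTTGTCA, 2 mismatches) and Gtse1 (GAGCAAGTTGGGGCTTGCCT, 1 mismatch), which were lower. Phlda3, Plk2, Eda2r, Psrc1 and Dcxr, all higher, had no half-site in the window. Sites outside the window were not searched.

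Genes around the pathway were read from the same fit. Of 15 tested kinases, acetyltransferases and other proteins that activate or stabilise p53, 1 was called higher and 12 lower, beside 19.9% higher and 58.4% lower over all genes, with a median of −0.48 beside −0.23. With quantile normalization 3 were higher and 8 lower, beside 36.1% and 35.9% of all genes. With median-ratio scaling 1 was higher and 11 lower, beside 37.4% and 36.4%. The deubiquitinase genes Usp10 and Usp7 averaged 2.80 and 3.94 FPKM with BMH-21 and 5.71 and 6.64 FPKM with DMSO, and the genes of the methyltransferase Prmt5 and the acetyltransferase Kat8 averaged 3.81 and 1.61 FPKM with BMH-21 and 7.16 and 3.51 FPKM with DMSO. Of 8 tested ligases and other proteins that restrain p53, 2 were called higher and 4 lower as deposited, with a median of −0.15. These counts were near the shares of 19.9% and 58.4% over all genes. Huwe1 and Ube4b averaged 1.95 and 3.40 FPKM with BMH-21 and 4.22 and 5.45 FPKM with DMSO, while the ligase gene Rchy1, which is also a p53 target, averaged 18.1 FPKM with BMH-21 and 14.5 FPKM with DMSO.

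Of 19 tested genes for MDM2-binding ribosomal proteins and nucleolar partners, 10 were called higher and 7 lower, beside 19.9% and 58.4% of all genes. With median-ratio scaling 12 were higher and 6 lower, beside 37.4% and 36.4%. With quantile normalization 7 were higher and 8 lower, near the shares of 36.1% and 35.9% over all genes. As deposited, the 10 called higher were all ribosomal protein genes, and every nucleolar partner gene was called lower. Of the remaining ribosomal protein genes Rpl5 was called lower and the others did not pass. Rpl5 and Rpl11, whose products carry the 5S RNA to MDM2, went apart, with Rpl5 at 169.6 ± 0.26 FPKM with BMH-21 and 231.7 ± 11.9 FPKM with DMSO, and Rpl11 at 440.8 ± 8.4 FPKM with BMH-21 and 379.7 ± 7.9 FPKM with DMSO (SD, n = 3 each). Both were called, at −0.45 and 0.21 (limma adjusted p = 6.68e-06 and 0.000464). The nucleolar genes Nop53, Ncl and Bop1 were lower, at 17.6, 26.0 and 12.1 FPKM with BMH-21 and 40.6, 56.1 and 23.0 FPKM with DMSO. Rps27l, a ribosomal protein paralog and p53 target, was higher, at 245.2 FPKM with BMH-21 and 119.8 FPKM with DMSO. Values of single ribosomal protein genes are uncertain, since near-identical pseudogenes can share their reads.

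Further p53 targets, all but Tnfrsf10b outside the 31, were called in both directions, beside 19.9% higher and 58.4% lower over all genes. These all-gene shares were 37.4% and 36.4% with median-ratio scaling and 34.4% and 39.8% with upper-quartile scaling. They were 36.1% and 35.9% with quantile normalization, and 14.2% and 67.9% with column totals made equal. Of 21 tested targets of arrest, repair and metabolism, 9 were called higher and 9 lower. The counts were 11 and 7 with median-ratio or upper-quartile scaling, 12 and 7 with quantile normalization, and 6 and 11 with column totals made equal. Gadd45b, a stress sensor gene, was higher, at 78.3 FPKM with BMH-21 and 30.5 FPKM with DMSO, while Fdxr, ferredoxin reductase, was lower, at 2.85 FPKM with BMH-21 and 9.97 FPKM with DMSO. The peptide transporter gene Tap1 and the replication clamp gene Pcna were also lower, at 2.07 and 70.2 FPKM with BMH-21 and 4.95 and 117.8 FPKM with DMSO. Of 22 tested targets of cell death and autophagy, 9 were called higher and 9 lower. The counts were 14 and 4 with median-ratio or upper-quartile scaling, 12 and 6 with quantile normalization, and 5 and 11 with column totals made equal. Ctsd, the protease cathepsin D, Trp53inp2 and Rps27l were higher, at 3684, 21.5 and 245.2 FPKM with BMH-21 and 1270, 11.3 and 119.8 FPKM with DMSO, and Casp6 was lower, at 7.29 FPKM with BMH-21 and 13.7 FPKM with DMSO. Tnfrsf10b is in both that list and the 31. It passed the filter only through the BMH-21 libraries, so its direction was fixed by that choice. Among the genes of that list that reached 1 FPKM in both groups, 8 were called higher and 9 lower. The matching share over all genes was not counted. The p53 relatives Trp63 and Trp73 were at 0 in every BMH-21 library and at most 0.00835 FPKM in sum in a DMSO library.

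Of 24 tested cell cycle genes known to be lowered through p21 and the DREAM repressor complex, 23 were called lower and 1, E2f1, higher, with a median of −1.44, beside 58.4% lower and 19.9% higher over all genes. Of the 23, Cdc25c, Bub1, Cenpf, Kif23, Prc1 and Ect2 passed the filter only through the DMSO libraries. Their direction was fixed by that choice. Of the 18 others, 17 were called lower, and the matching share over all genes was not counted. E2f1 was no longer called with column totals made equal or against DMSO replicate 3 alone. Ccnb2 and Ccnb1, the mitotic cyclins, averaged 8.71 and 1.73 FPKM with BMH-21 and 80.8 and 12.2 FPKM with DMSO, and Cdc20 and Birc5 2.58 and 7.40 FPKM with BMH-21 and 17.2 and 26.5 FPKM with DMSO.

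**Figure D5:**
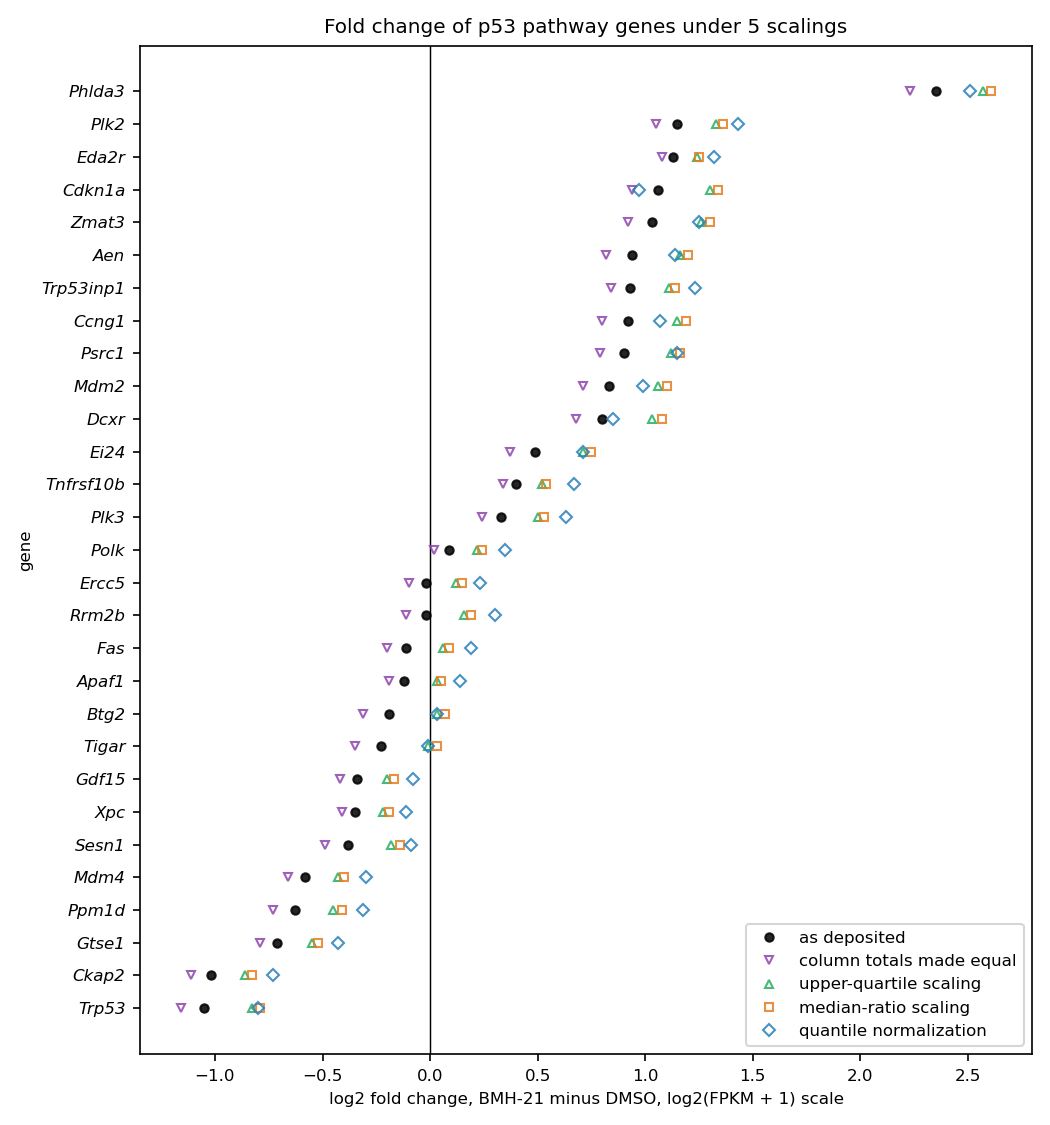
Log2 fold change (BMH-21 minus DMSO) of the 29 tested members with the FPKM values as deposited and under 4 other scalings. The order of genes is nearly kept, and Trp53, Ckap2, Gtse1, Ppm1d and Mdm4 stay below 0 in all 5. The 14 members called higher stay above 0 in all 5, and of these Eda2r and Tnfrsf10b passed the filter only through the BMH-21 libraries. Btg2, Tigar, Rrm2b, Ercc5, Fas and Apaf1 lie on either side of 0.

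Scaling shifted the fold changes of the members. Changes of call fell on members that stood, relative to the median of all genes, between Sesn1 at −0.15 and Polk at 0.32. Median-ratio, upper-quartile and quantile scaling raised the all-gene median by 0.23, 0.20 and 0.24, and equal column totals lowered it by 0.10. Phlda3 ranged from 2.23 to 2.61 across scalings, Cdkn1a from 0.94 to 1.34, and Trp53 from −1.16 to −0.79. The 12 rises of members that reached 1 FPKM in both groups held their call under each alternative that tested them. So did the falls of Trp53, Mdm4, Ppm1d, Ckap2 and Gtse1. Eda2r and Tnfrsf10b also stayed higher, but the filter had fixed their direction.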

How the data were processed

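Polysome-fraction RNA of 6 libraries was measured by RNA sequencing, after enrichment with oligo-dT beads per the labels' protocols. HISAT2, SAMtools and Trimmomatic 0.38 are named with mm10 in the submitters' processing notes. Tools for counting and normalising are not named in those notes. The authors deposited 1 table, whose unit was read as FPKM from the values. Multiplied by GENCODE M21 exon lengths, 81.4% to 83.3% of low values per library (at most 20 reads) came within 0.01 of a whole read, which gave the implied depths and, for 25 of 31 members, implied reads. No count model was fitted.

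The fit used log2(FPKM + 1) and the 9748 of 19233 genes that reached 1 FPKM in 3 or more libraries. It was made with limma (version 3.58.1, R 4.3.3), letting the variance follow the mean level, and Benjamini-Hochberg adjustment over all tested genes at 0.05. The fit was also run on simulated data in which few genes changed, up and down alike. Far more genes were called here, so that run does not bear on these calls or their scaling. Ratios were tested by exact permutation (scipy 1.17.1). Values in each library are given for Trp53, Mdm2, Mdm4, Ppm1d, Cdkn1a and members called with a log2 fold change of at least 0.5 in size, and for others where a result turned on single libraries. Of each other list members are named from the 4 with the lowest p. Rpl5, Rpl11, E2f1, Gadd45a and Gadd45g were chosen after their values were seen. The members, lists and tests were chosen with earlier results of these data known. Alternatives were another pseudocount, filters, scalings, no trend, a replicate block, and each library left out. Positions are from GENCODE M21 (GRCm38, the assembly of mm10), which matched 97.2% of genes.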

Additional observations from a re-analysis of the deposited data

How the results depend on the processing

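Across 16 alternatives, 19 of 29 tested members kept their call and sign. Among them were Eda2r and Tnfrsf10b, whose direction was fixed by the filter. Leaving out 1 library at a time gave 14 members higher throughout and 10 or 11 lower, with the members' median between 0.02 and 0.13, and 1816 to 1876 genes higher and 5450 to 5597 lower over all genes. Over all genes, 3643, 3349 and 3517 were called higher with median-ratio scaling, upper-quartile scaling and quantile normalization, beside 1938, and 3546 and 3498 were called lower with median-ratio scaling and quantile normalization, or 3465 with a filter of 5 FPKM, beside 5690. Members called lower numbered 4 with the filter of 5 FPKM, where fewer members were tested, and 5 with quantile normalization. The members' median was 0.87 with that filter and 0.24, 0.22 and 0.35 under median-ratio, upper-quartile and quantile scaling, and these scalings raised the median of all genes too. Signs turned for Btg2 (0.07, 0.03 and 0.03 under median-ratio, upper-quartile and quantile scaling), Rrm2b (0.19, 0.16 and 0.30), Ercc5 (0.15, 0.12 and 0.23, not passing under upper-quartile scaling) and Tigar (0.03 with median-ratio scaling), and for Fas and Apaf1, which passed in neither direction there. Replicate numbers did not pair the libraries: deviations of same-numbered libraries correlated at −0.11, −0.09 and −0.06. With the replicate block, 14 members were higher and 10 lower, and 1894 and 5608 genes over all. Low levels limit the precision of Perp, Ddb2, Eda2r and Gdf15.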

Other observations

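The libraries with Perp above 0 shared other transcripts. In all, 22 genes were under 0.05 FPKM in DMSO replicates 1 and 2 and above 0.3 FPKM in the other 4 libraries, a pattern chosen after the values were seen. Among them were the keratin genes Krt8 and Krt7 and the junction genes Cldn4, Epcam and Cdh1. Cldn4 had 1.32, 0.610 and 1.83 FPKM with BMH-21, against 0, 0 and 0.998 FPKM with DMSO. The chemokine gene Cxcl1 had 7.90, 8.58 and 0.923 FPKM with BMH-21, against 0, 0 and 6.91 FPKM with DMSO. These are values of single libraries, and their source was not tested.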
